A study of Mus musculus with 4 samples.

Results

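The type 2 cytokine and alarmin genes described here are 9 named genes out of 32286 measured: the alarmins Il33 and Tslp, the IL-33 receptor Il1rl1, the cytokines Il4, Il5 and Il13, and the receptor chains Il4ra, Il13ra1 and Il13ra2. They were listed by name and not chosen by their levels. All 9 had at least 1 unique molecular identifier (UMI, 1 captured RNA molecule) in the lungs of 4 bleomycin-injured mice, 2 wild type (WT) littermates and 2 Tubb3-/- animals. Tubb3-/- mice carried, on both alleles, a Cre recombinase sequence placed at the start codon of Tubb3, which encodes a neuronal β-tubulin, so that the gene is disrupted in every cell and not in a chosen cell type. Mice of both genotypes were 8 to 11 weeks old, received 0.8 U/kg bleomycin into the trachea and were studied on day 14, and no uninjured lung was analysed here. Replicate 1 of each genotype was male and replicate 2 female by Xist and Y-linked RNA, so sex is balanced between genotypes and is the same thing as the replicate number. Each mouse number gave 1 whole-cell sample and 1 mural cell-enriched sample, the latter depleted of CD31, CD45 and EpCAM positive cells. The 8 samples were tagged and pooled by kind. The enriched pool was then remixed from MCAM-positive PDGFRα-negative and MCAM-negative sorted cells. Each pool gave 1 gene expression library, and the 8 sets of cells told apart by tag are called libraries here.

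Type 2 immunity is the arm of the immune response seen in allergy, worm infection and tissue repair. IL-33 and TSLP are called alarmins because structural cells make them and release them on damage or stress; IL-33 acts through the receptor encoded by Il1rl1 (ST2), which is borne by group 2 innate lymphoid cells, T helper 2 cells, mast cells and a portion of regulatory T cells. Those cells answer with IL-5, the main survival factor of eosinophils, IL-13, which acts on epithelium, macrophages and fibroblasts, and IL-4, which directs T and B cells. Il4ra encodes the chain shared by the receptors for IL-4 and IL-13, Il13ra1 the chain that joins it to bind IL-13, and Il13ra2 a second IL-13 receptor often described as a decoy.

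The genes lie on 6 chromosomes (mouse build GRCm38, which is mm10, GENCODE annotation). Il4, Il13 and Il5 are neighbours on chromosome 11: Il4 at chr11:53602982-53618669, Il13 at chr11:53631324-53634702 and Il5 at chr11:53720794-53725106, with Rad50 the only other protein-coding gene in that span of 122125 bases. Tslp is at chr18:32815383-32819797, Il33 is at chr19:29925114-29960718, Il1rl1 at chr1:40429570-40465415, Il4ra at chr7:125552120-125579474, Il13ra1 at chrX:36112110-36171259 and Il13ra2 at chrX:147383476-147429192. Il5, Il4ra and Tslp each overlap 1 non-coding gene on the opposite strand, and reads of such a pair are kept apart only by a count that uses strand.

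The stretches of DNA printed here belong to Il1rl1, Il5, Il13 and Il4. Of the immune cells with a UMI of each, 71.5%, 84.9%, 79.3% and 71.1% in that order also held Gata3 RNA, beside 17.2% of all immune cells, and the stretches are shown because GATA3 is a defining transcription factor of group 2 innate lymphoid and T helper 2 cells. They are the 250 bases before the RefSeq start of each gene (GRCm38.p6, read 5′ to 3′ on the gene's own strand: chr1:40429320-40429569 on the plus strand for Il1rl1, chr11:53720544-53720793 on the plus strand for Il5, chr11:53634703-53634952 on the minus strand for Il13 and chr11:53618666-53618915 on the minus strand for the outer of 2 starts of Il4). Capitals mark matches to the GATA motif on either strand, spelt AGATAA or with the variant ending AGATAG, and likewise the spelling TGATAA or its variant TGATAG, with overlapping matches counted separately.

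Il1rl1: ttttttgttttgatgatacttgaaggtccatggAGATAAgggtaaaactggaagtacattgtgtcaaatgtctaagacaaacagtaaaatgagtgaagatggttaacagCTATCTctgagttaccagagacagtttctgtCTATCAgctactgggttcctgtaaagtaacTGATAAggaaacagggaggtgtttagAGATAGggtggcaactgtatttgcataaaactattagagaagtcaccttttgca

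Il5: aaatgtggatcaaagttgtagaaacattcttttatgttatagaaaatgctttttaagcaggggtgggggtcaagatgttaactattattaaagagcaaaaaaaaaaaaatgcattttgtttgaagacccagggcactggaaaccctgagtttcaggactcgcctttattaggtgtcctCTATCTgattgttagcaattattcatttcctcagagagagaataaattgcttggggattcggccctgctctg

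Il13: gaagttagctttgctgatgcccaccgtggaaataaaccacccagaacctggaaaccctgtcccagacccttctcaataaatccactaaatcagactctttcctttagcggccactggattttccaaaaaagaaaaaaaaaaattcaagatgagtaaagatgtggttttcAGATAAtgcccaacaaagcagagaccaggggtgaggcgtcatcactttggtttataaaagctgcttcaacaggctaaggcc

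Il4: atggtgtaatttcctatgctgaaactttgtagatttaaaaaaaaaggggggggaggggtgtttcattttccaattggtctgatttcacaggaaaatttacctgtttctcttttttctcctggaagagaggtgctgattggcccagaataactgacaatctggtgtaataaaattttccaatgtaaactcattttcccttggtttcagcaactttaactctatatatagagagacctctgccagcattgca

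Il5 held 1 match, starting 72 bases before the gene's start (position -72), and Il13 held 1 match at -81. The Il1rl1 stretch, which lies before the upstream one of 2 annotated starts, held 5 matches, at -217, -141, -110, -80 and -54. The other Il1rl1 start had 1 match, at -103. At least 1 match was present before 26.5% of 32851 RefSeq starts, so 1 match is common, and 5 or more were present before 14 of them, 0.0426%. No match lay before the starts of Il33, Il4ra and Il13ra1, 1 lay before that of Il13ra2 at -15, and Il4 had 1 before the inner of its 2 starts and none before the outer. A match of letters is a description and not a binding site.

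Cells were placed in a lineage by 1 or more UMIs of a marker gene (Ptprc for immune, Cdh5 for endothelial, Epcam for epithelial, Msln for mesothelial, Higd1b or Myh11 for mural, Pdgfra for fibroblast cells), and cells matching several lineages were dropped. That left 15390 of 28993 cells (53.1%), 4289 immune, 2262 endothelial, 317 epithelial, 320 mesothelial, 4451 mural and 3751 fibroblast cells, while 12870 cells (44.4%) matched several lineages. Independent marker lists of 6 genes each were highest in their own gate for all 6 genes, except in fibroblasts, where 5 of 6 were and Dcn was higher in the mesothelial gate. Within a pool no barcode was shared between libraries, which the assignment of each cell to 1 tag fixes in advance. Between the 2 pools 59 were shared over all pairs of libraries, 22 of them between the 2 libraries of the same mouse. Tubb3 was at 0.868 to 5.49 CPM (the UMIs of a gene scaled to the total UMIs of the sample) in the WT libraries and 0.262 to 0.789 in the Tubb3-/- libraries, and Cre was at 0 UMIs in all WT libraries and 0 to 2 in the Tubb3-/- libraries. Levels are CPM of the UMIs summed per mouse and lineage, given for WT replicate 1, WT replicate 2, Tubb3-/- replicate 1 and Tubb3-/- replicate 2 in that order. In such sums, fewer producing cells and less RNA per cell cannot be told apart. Cells of the Tubb3-/- mice were deeper. The median was 9186 and 10091 UMIs in the WT and 12318 and 11484.5 in the Tubb3-/- whole-cell libraries. In the enriched libraries it was 13321 and 12406 against 16299 and 15725. Shares of cells with a UMI that are not thinned move with this depth.

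**Figure D1:**
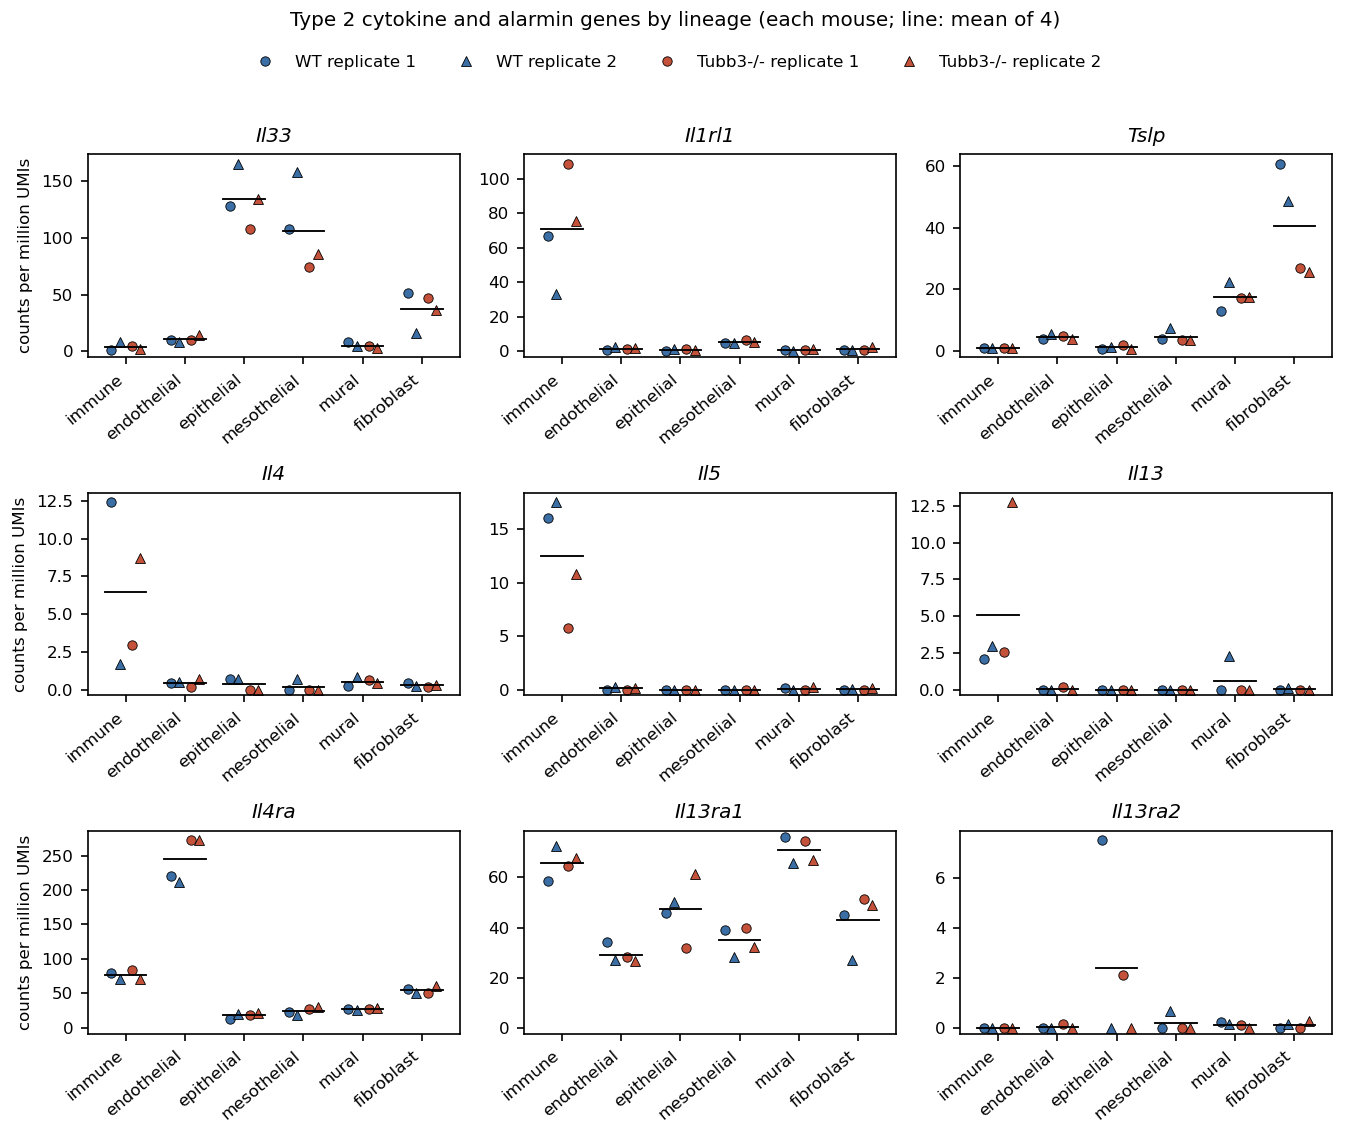
Each panel plots 1 gene; the vertical axis is CPM and each point is 1 mouse (blue WT, red Tubb3-/-, circle replicate 1, triangle replicate 2), with a line at the mean of 4 mice. Il33 was highest in epithelial and mesothelial cells, Tslp in fibroblasts, Il1rl1, Il4, Il5 and Il13 in immune cells and Il4ra in endothelial cells, while Il13ra1 was spread over all 6 lineages.

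The members differed between lineages in both directions. Each lineage was set against the mean of the other 5 (edgeR quasi-likelihood test, Benjamini-Hochberg over all genes). Il13ra2 had too few UMIs to be tested, and Il4, Il5 and Il13 passed the filter on low counts through immune cells alone, where they are highest, so their lineage tests are not counted. Of the 30 gene and lineage pairs of the other 5 members, 24 passed, 11 higher and 13 lower. Over all genes 57.1% of pairs passed (29.3% higher, 27.8% lower), and 61.0% had an unadjusted p under 0.05, where 25 of the 30 pairs did. In immune cells 3 of the 5 members were higher and 2 lower (36.9% and 36.5% of all genes), in endothelial cells 1 and 2 (28.1% and 31.8%), in epithelial cells 1 and 3 (27.9% and 28.4%), in mesothelial cells 1 and 2 (21.7% and 17.3%), in mural cells 2 and 3 (31.3% and 26.1%) and in fibroblasts 3 and 1 (29.8% and 26.7%).

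Il33, the nuclear alarmin, was highest per lineage in epithelial and mesothelial cells, though fibroblasts held 2623 of its 4527 UMIs in the lineages. Its level was 128, 165, 108 and 135 CPM in epithelial cells and 108, 158, 74.4 and 85.7 CPM in mesothelial cells, and these 2 lineages overlapped. Fibroblasts followed with 51.1, 15.9, 47.0 and 36.5 CPM, below every epithelial and mesothelial value, and WT replicate 2 stood lowest. Endothelial cells (10.7 CPM, mean of 4 mice), mural cells (5.10 CPM) and immune cells (3.95 CPM) were lower still. Against the mean of the other lineages Il33 was higher in epithelial cells (log2 fold change 3.04, SE 0.27), in mesothelial cells (2.63, SE 0.29) and in fibroblasts (1.05, SE 0.27), all called by edgeR.

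Within the epithelial gate nearly all Il33 was in cells with a UMI of Abca3, which encodes the lipid transporter of lamellar bodies in alveolar type 2 cells. Those 221 cells held 748 of 753 UMIs, at 151, 193, 150 and 161 CPM, and the 96 cells without Abca3 were at 12.6, 4.90, 2.48 and 0 CPM. Cells with Abca3 were also deeper, with a median of 19161 UMIs against 8305.5. The richest cell of Tubb3-/- replicate 1 held 66 of that mouse's 152 epithelial UMIs, and without it the mouse was at 62.4 CPM. In the fibroblast gate Il33 followed Pi16, a marker of adventitial fibroblasts. The 1044 cells with a Pi16 UMI were at 136, 49.0, 140 and 106 CPM and the 2707 without were at 9.86, 4.81, 11.8 and 10.2 CPM, at like depth (median 17258.5 and 16927 UMIs), so the Pi16-positive cells were higher in each of the 4 mice and carried 82.4% of fibroblast Il33 UMIs. With every cell thinned to 2000 UMIs, Il33 was detected in 17.6% of mesothelial, 11.1% of epithelial and 5.23% of fibroblast cells, beside 0.623% of immune cells (median depths 13763, 16277, 17011 and 6778 UMIs).

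The immune Il33 signal rested on few cells. Of 170 UMIs, 52 came from 1 Foxp3-positive cell of WT replicate 2; without that cell its level went from 8.51 to 3.06 CPM. Only 8 of 4289 immune cells held both Il33 and Il1rl1, and so did 11 of 320 mesothelial cells.

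Between genotypes Il33 passed the test in no lineage. In mesothelial cells both Tubb3-/- mice (74.4 and 85.7 CPM) lay below both WT mice (108 and 158 CPM), with a log2 difference of -0.73 (SE 0.23) and an adjusted p of 0.316 by edgeR. In the same gate the 6 fibroblast markers summed to 4847 and 5167 CPM in WT and 7028 and 6149 CPM in Tubb3-/- mice, and the 6 mesothelial markers to 5720 and 6571 against 4222 and 4609 CPM. Their part in the Il33 difference was not tested. In mural cells, where Il33 was low, both Tubb3-/- mice (4.34 and 3.07 CPM) were also below both WT mice (8.44 and 4.54 CPM), a log2 difference of -0.85 (SE 0.38, adjusted p 0.504, edgeR), and it was -0.23 without WT replicate 1. In epithelial cells the difference was -0.31 (SE 0.22) and in fibroblasts 0.29 (SE 0.52), adjusted p 0.973 and 0.816 by edgeR, with overlapping mice in both. The fibroblast value turned on WT replicate 2, being 1.45 without WT replicate 1 and -0.32 without WT replicate 2.

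Tslp, a cytokine of the IL-7 family that acts on dendritic cells and innate lymphoid cells, was a gene of fibroblasts and of a part of the mural cells. Fibroblasts were at 60.7, 48.6, 26.9 and 25.6 CPM, mural cells at 12.9, 22.4, 17.2 and 17.5 CPM, and no fibroblast value fell within the mural range. Mesothelial (4.71 CPM, mean), endothelial (4.64 CPM), epithelial (1.25 CPM) and immune cells (1.07 CPM) were lower. Higher levels in fibroblasts (log2 fold change 3.64, SE 0.18) and mural cells (2.12, SE 0.20) than in the mean of the others were both called by edgeR. Thinned to 2000 UMIs, 6.70% of fibroblasts and 3.04% of mural cells held a Tslp UMI, beside 0.168% of immune cells. Epithelial cells, the classical source of TSLP in airways, held 7 UMIs in 317 cells. Of these cells 221 held the alveolar gene Abca3. Only 9 held the airway gene Foxj1, and 7 the airway gene Scgb3a2, with no other epithelial class marker. The airway source was thus hardly sampled.

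Among mural cells Tslp followed Higd1b, a pericyte gene. The 491 Higd1b-positive cells were at 59.3, 91.1, 80.9 and 73.3 CPM, overlapping the WT fibroblasts, while the 3960 cells with Myh11, the smooth muscle myosin, and no Higd1b were at 9.54, 11.6, 10.4 and 10.5 CPM. The first range lay above the second in all 4 mice, and the Higd1b-positive cells were the shallower ones (median 9171 against 10768 UMIs). Of the Higd1b-positive cells 449 also held Myh11, at 50.0, 82.0, 85.0 and 73.9 CPM. The 42 without Myh11 were at 162, 182, 0 and 39.6 CPM. Higd1b is also 1 of the 2 genes that admit a cell to the mural gate, which does not involve Tslp.

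In fibroblasts Tslp had the smallest p of any member between genotypes. Both WT mice (60.7 and 48.6 CPM) lay above both Tubb3-/- mice (26.9 and 25.6 CPM), a log2 difference of -1.07 (SE 0.16, 2 mice a genotype). The unadjusted p of 0.00058 became 0.0816 over the 14747 genes tested (edgeR), so it did not pass; 0.0% of those genes passed. DESeq2 called it with an adjusted p of 8.69e-05, as it did 3.46% of all genes there. A fit with 1 spread for all lineages (adjusted p 0.0147), and the fits without WT replicate 1 (0.0146) or without WT replicate 2 (0.0105), called it too, all with edgeR. So did the fit with the replicate number as a block (0.00425, edgeR), which pairs mice that share only a number and a sex. Those fits called 1.22%, 5.63%, 2.9% and 8.76% of all genes in fibroblasts.

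Both WT mice were above both Tubb3-/- mice in each library type and in the cells with Npnt or Cthrc1. Whole-cell libraries gave 56.3, 51.96, 28.6 and 20.5 CPM and mural cell-enriched libraries 62.5, 46.8, 25.8 and 28.4 CPM, the same 4 lungs sampled in another way. In cells with a UMI of Npnt, an alveolar fibroblast gene, Tslp was at 64.8, 49.6, 25.9 and 26.2 CPM, and in cells with Cthrc1, a gene of fibrotic fibroblasts, at 39.1, 44.6, 22.5 and 26.3 CPM. In the 504 cells without Npnt Tslp was at 37.9, 34.1, 34.0 and 20.3 CPM, where WT replicate 2 and Tubb3-/- replicate 1 were nearly equal. Cells with Cthrc1, counted without thinning, were 20.7% and 17.5% of the gate in WT and 31.9% and 29.0% in the deeper Tubb3-/- mice. Cthrc1 itself was at 69.4, 51.6, 209 and 100 CPM. The 6 mural markers summed in the fibroblast gate to 347 and 350 CPM in WT and 653 and 482 CPM in Tubb3-/- mice. In cells without Cthrc1 Tslp was at 67.3, 49.5, 29.3 and 25.3 CPM. The part of the Cthrc1-positive cells and of the mural markers in the difference was not tested. Mural cells showed no such order, with a log2 difference of 0.01 (SE 0.22). The fibroblast difference minus the mean of the other lineages was -0.91 (SE 0.32), with an unadjusted p of 0.0108 and an adjusted p of 0.747 by edgeR, which did not pass.

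**Figure D2:**
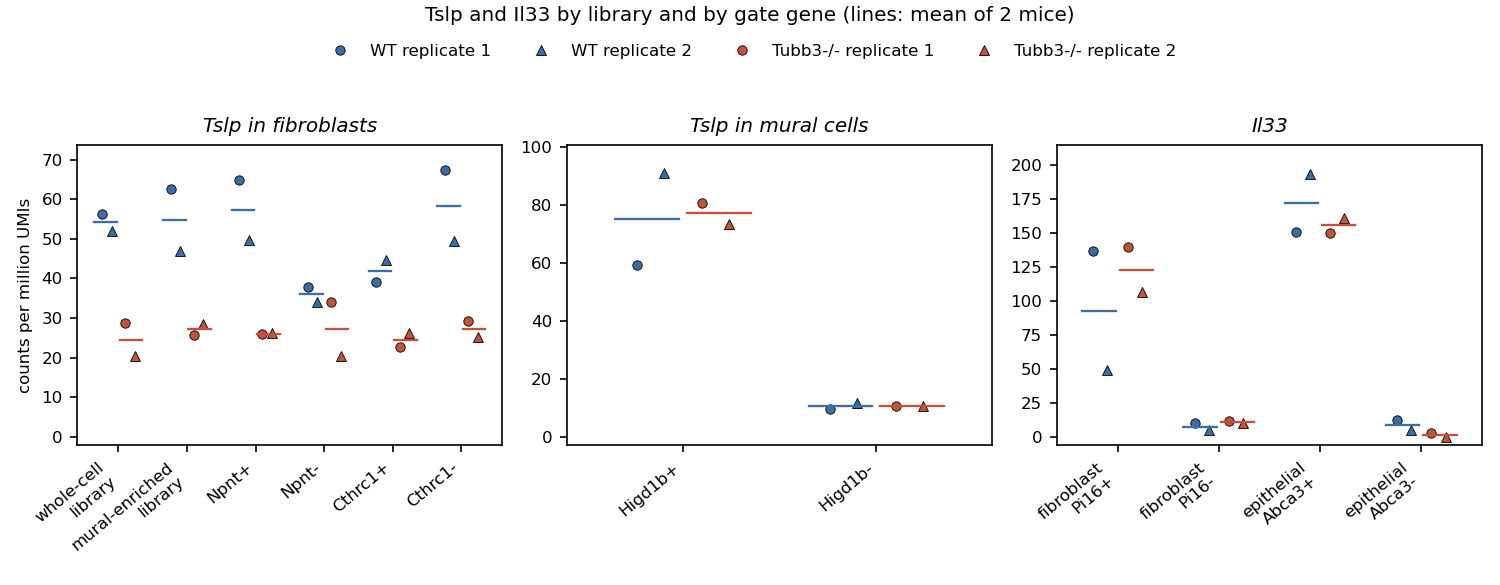
The vertical axes are CPM; points are mice (blue WT, red Tubb3-/-, circle replicate 1, triangle replicate 2) and short lines are the mean of 2 mice. Tslp in fibroblasts was lower in both Tubb3-/- mice in either library type, Tslp in mural cells was high in Higd1b-positive cells of all 4 mice, and Il33 was high in Pi16-positive fibroblasts and Abca3-positive epithelial cells.

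Il1rl1, the receptor through which IL-33 acts, was an immune gene here. Immune cells were at 66.8, 33.5, 109 and 75.7 CPM, and no other lineage exceeded 6.51 CPM in any mouse. The difference from the mean of the other lineages was a log2 fold change of 5.72 (SE 0.22), called by edgeR. Mesothelial cells were next at 5.44 CPM (mean), with 25 UMIs in 17 of 320 cells, above every value of the remaining lineages. After thinning, 8.94% of immune cells held a UMI, beside 0.188% of fibroblasts and 0.159% of mural cells.

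Most Il1rl1 RNA sat in Foxp3-positive cells, that is cells with the defining transcription factor of regulatory T cells. In the class with Foxp3 and no other immune class marker, 223 of 289 cells held it, at 828, 419, 1174 and 985 CPM, and this class gave 59.7% of immune Il1rl1 UMIs. The class with Gata3 and Il7r and without Cd3 genes, the pattern of group 2 innate lymphoid cells, held it in 87 of 93 cells at 1198, 943, 851 and 1170 CPM and gave 16.4%. Other Cd3-positive cells were at 46.2, 87.0, 64.0 and 64.7 CPM. Of the 9 cells with the basophil and mast cell genes Ms4a2 or Mcpt8 and no other class marker, 4 held Il1rl1, too few for a level.

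Il1rl1 in immune cells was higher in both Tubb3-/- mice (109 and 75.7 CPM) than in both WT mice (66.8 and 33.5 CPM), a log2 difference of 0.88 (SE 0.35) that did not pass (adjusted p 0.597, edgeR). Cells with a Foxp3 UMI, counted without thinning, were 6.20% and 3.17% of immune cells in WT and 12.04% and 8.22% in Tubb3-/- mice, in the same order. Foxp3 itself was at 16.6, 7.67, 35.7 and 21.3 CPM. Among the 3963 immune cells without a Foxp3 UMI the level was 33.1, 23.7, 25.7 and 34.9 CPM, with the genotypes overlapping. Among the 326 cells with one it was 741, 298, 1139 and 745 CPM, where WT replicate 1 and Tubb3-/- replicate 2 were nearly equal. The part of the share of Foxp3-positive cells and of their level in the difference was not tested. Without WT replicate 1 the log2 difference in all immune cells was 1.498, from a fit with 1 WT mouse.

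Among the 6 lineages the cytokine genes Il5, Il13 and Il4 were rare and found mostly in immune cells, where 95 of 4289 cells (2.21%) held a UMI of at least 1 of the 3. By mouse these were 26, 24, 18 and 27 cells. A single cytokine was seen in 69 of them, a pair in 20 and all 3 in 6. Because so few cells carried the RNA, 1 cell could set a mouse's level, and each gene is given with and without its richest cell.

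Il5 had 535 immune UMIs in 53 cells, and at most 5 UMIs in any other lineage. Its level was 16.0, 17.6, 5.77 and 10.8 CPM, and without the richest cell of each mouse 10.2, 9.68, 1.90 and 6.54 CPM, so both WT mice were above both Tubb3-/- mice either way. The log2 difference was -1.03 (SE 0.29) with an unadjusted p of 0.0124 and an adjusted p of 0.516 (edgeR), which did not pass. The number of immune cells with an Il5 UMI was 13, 16, 8 and 16, and these counts overlapped between genotypes. In the Gata3-positive, Il7r-positive, Cd3-negative class the level was 1338, 530, 371 and 195 CPM over 24 of 93 cells, with 26, 15, 27 and 25 such cells in the 4 mice. These levels include the richest cells of WT replicate 1 (65 UMIs) and Tubb3-/- replicate 1 (51 UMIs), which held 116 of the 299 Il5 UMIs of the class. The order of the mice in this class thus leans on single cells. Of Il5-positive immune cells, 84.9% (exact 95% interval 72.4% to 93.3%) also held Il1rl1 and the same share held Gata3, beside 12.9% and 17.2% of all immune cells. Areg, which encodes amphiregulin, was in 75.5% of them (61.7% to 86.2%), beside 14.7%.

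Il13 had 220 immune UMIs in 29 cells. Its level was 2.07, 2.94, 2.58 and 12.8 CPM, and Tubb3-/- replicate 2 stood above the others. In that mouse 77 of 135 UMIs came from 1 Cd3-positive cell, without which it was at 5.49 CPM. Without the richest cell of each mouse the levels were 0.361, 2.21, 1.37 and 5.49 CPM. The log2 difference between genotypes was 1.60 (SE 0.76, adjusted p 0.635, edgeR), and the groups overlapped. All 29 cells held Il7r, 24 held Il1rl1 and 14 held Il5. Outside immune cells, 16 of the 17 mural UMIs came from 1 Myh11-positive cell of WT replicate 2.

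Il4 had 285 immune UMIs in 45 cells, of which 105 were in 1 Cd3-positive cell of WT replicate 1. The level was 12.4, 1.68, 2.96 and 8.70 CPM, and without the richest cell of each mouse 2.98, 1.37, 1.37 and 4.55 CPM. No order between the genotypes was seen (log2 difference -0.33, SE 0.88, adjusted p 0.940, edgeR), and the sign turned when WT replicate 1 or Tubb3-/- replicate 1 was left out. Unlike Il5, which was in none of the cells with Ms4a2 or Mcpt8, Il4 shared 9 of its 45 cells with the mast cell and basophil gene Ms4a2, a gene found in 17 of all 4289 immune cells. That difference was not tested. Cd3-positive Foxp3-negative cells gave 75.4% of Il4, 55.0% of Il13 and 41.5% of Il5 UMIs, and the Gata3-positive, Il7r-positive, Cd3-negative class gave 8.07%, 30.9% and 55.9%. Without the richest cell of each mouse the first shares were 58.9%, 43.6% and 34.1% and the second 20.5%, 41.6% and 61.2%, and 77 of the 121 Il13 UMIs in Cd3-positive Foxp3-negative cells came from 1 cell. In the class with Foxp3 and no other class marker Il4 was in 0 of 289 cells, which allows a share of up to 1.04% of cells with a UMI, and 1 of the 45 Il4-positive cells held a Foxp3 UMI beside another class marker.

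**Figure D3:**
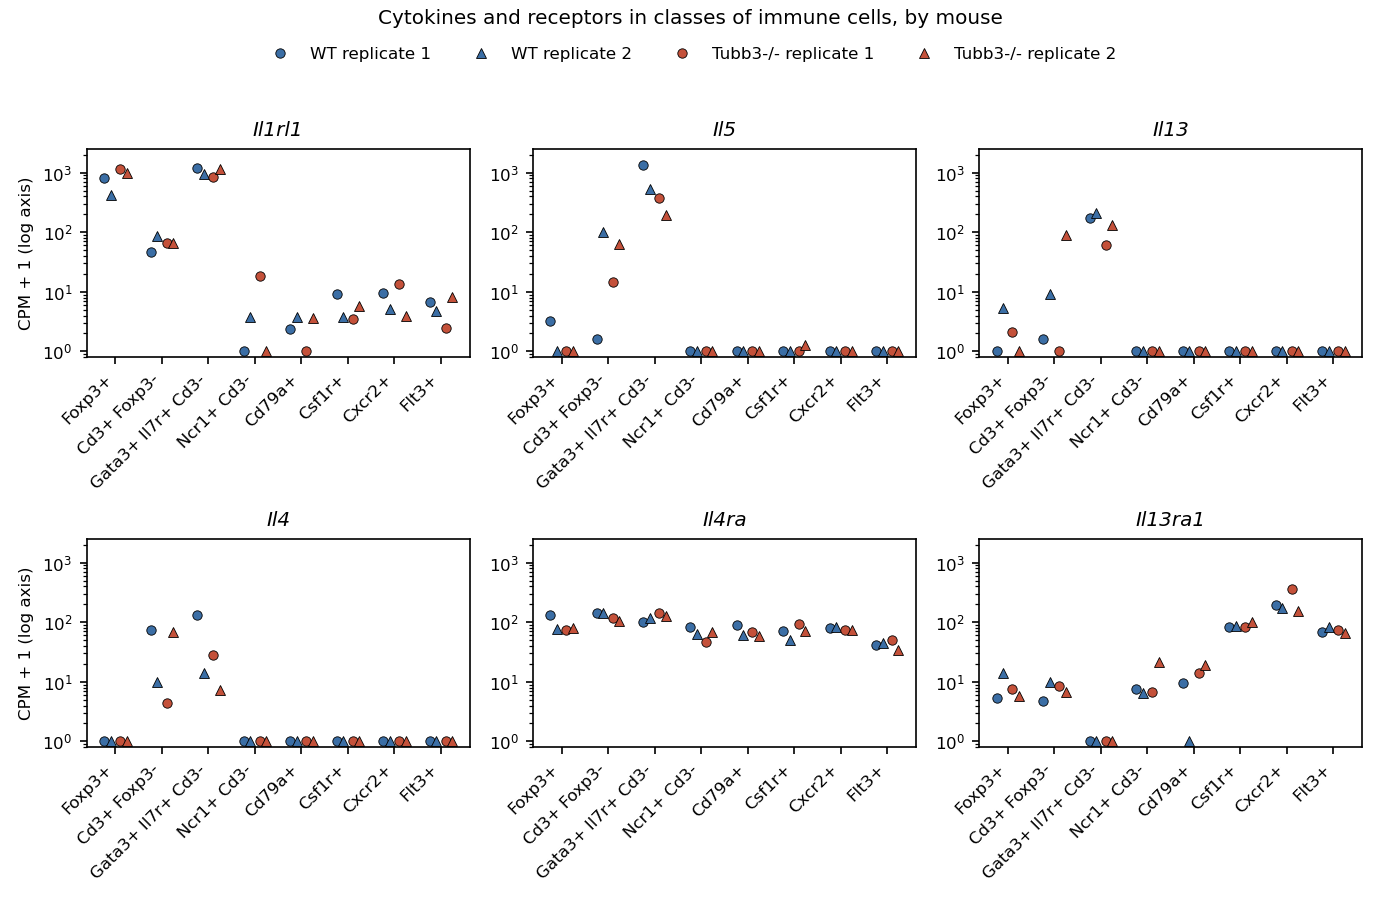
Each panel plots 1 gene over 8 classes of immune cells; the vertical axis is CPM plus 1 on a log axis and each point is 1 mouse (blue WT, red Tubb3-/-, circle replicate 1, triangle replicate 2). Il1rl1 was at 419 to 1198 CPM in Foxp3-positive and in Gata3-positive, Il7r-positive, Cd3-negative cells, Il5 was highest in the latter, and Il13ra1 was low in the lymphocyte classes and higher in Csf1r-positive, Cxcr2-positive and Flt3-positive cells.

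Il4ra, the chain common to the IL-4 and IL-13 receptors, was an endothelial gene above all. Endothelial cells were at 221, 211, 273 and 273 CPM, immune cells at 80.0, 70.6, 83.5 and 71.0 CPM and fibroblasts at 56.7, 50.6, 50.2 and 60.9 CPM, with no overlap between these lineages. Mural (26.8 CPM, mean), mesothelial (24.6 CPM) and epithelial cells (18.4 CPM) were lower. Endothelial cells were above the mean of the others by a log2 fold change of 2.65 (SE 0.08), called by edgeR, and after thinning 37.4% of them held a UMI, against 3.59% of mesothelial cells, the lowest share.

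The endothelial level was shared by capillary classes. Cells with Car4, a gene of aerocytes, were at 236, 208, 252 and 278 CPM and cells with Gpihbp1, which anchors lipoprotein lipase in capillaries, at 230, 226, 294 and 287 CPM. Cells with Prox1, the lymphatic regulator, were at 190, 180, 145 and 121 CPM over 80 cells. In endothelial cells both Tubb3-/- mice were above both WT mice, a log2 difference of 0.35 (SE 0.10) with an unadjusted p of 0.0101 and an adjusted p of 0.222 (edgeR), which did not pass. The mural cell-enriched libraries, with 62 to 123 endothelial cells a mouse, gave 208, 177, 287 and 190 CPM, in which the lowest Tubb3-/- value was below the highest WT value. The whole-cell libraries gave 223, 218, 271 and 286 CPM.

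Il13ra1, which completes the IL-13 receptor, was the member spread most evenly. Mural cells were at 76.1, 65.8, 74.4 and 67.0 CPM and immune cells at 58.6, 72.4, 64.6 and 67.9 CPM, and each lineage overlapped its neighbour in the order mural, immune, epithelial (47.3 CPM, mean), fibroblast (43.1 CPM), mesothelial (34.9 CPM) and endothelial (29.2 CPM). Mural (log2 fold change 0.82, SE 0.13) and immune cells (0.78, SE 0.13) were above the mean of the others, endothelial cells below it (-0.98, SE 0.15), all called by edgeR. Among immune cells it was a myeloid gene. Cxcr2-positive cells, the neutrophil pattern, were at 194, 173, 367 and 156 CPM and Csf1r-positive cells, the monocyte and macrophage pattern, at 83.3, 86.9, 82.0 and 98.4 CPM, while Foxp3-positive cells were at 4.45, 13.2, 6.54 and 4.68 CPM and the Gata3-positive, Il7r-positive, Cd3-negative class had no UMI in 93 cells. In fibroblasts Il13ra1 was at 44.9, 27.1, 51.5 and 49.1 CPM, both Tubb3-/- mice above both WT mice, with WT replicate 2 far below the rest. That difference did not pass (log2 0.46, SE 0.26, adjusted p 0.402, edgeR), and it was 0.94 without WT replicate 1.

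Both chains were detected in the same cell in 23.1% of fibroblasts, 17.2% of immune, 13.75% of endothelial, 11.3% of mural, 9.78% of epithelial and 9.06% of mesothelial cells, shares that move with depth. Il13ra2 was almost absent, with 29 UMIs in 17 cells of all 6 lineages. Of these, 14 came from 2 epithelial cells, 11 of them from 1 cell of WT replicate 1, and 0 of 4289 immune cells held one, which allows a share of up to 0.0699% of cells with a UMI. It was not tested between genotypes.

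**Figure D4:**
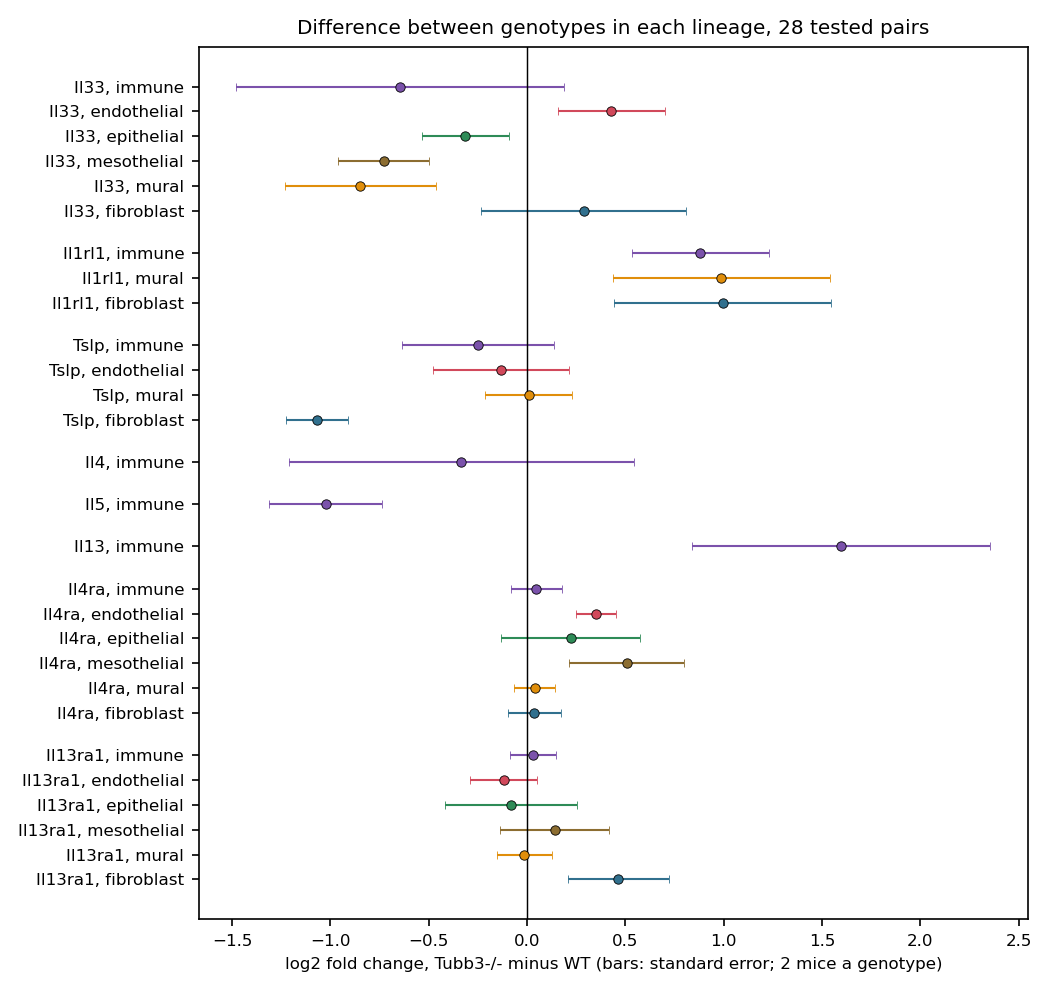
The horizontal axis is the log2 fold change, Tubb3-/- minus WT, for the 28 gene and lineage pairs that passed the filter on low counts. Points are the edgeR estimate and bars a standard error derived from its test statistic, 2 mice a genotype. Tslp in fibroblasts was at -1.07 with a narrow bar, and Il4ra and Il13ra1 lay between -0.12 and 0.51 in all 6 lineages.

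Of these 28 pairs none was called between genotypes by edgeR, where 0.0489% of all 75624 pairs of genes and lineages were, all 37 of them in mesothelial cells (0.391% of 9475). Tubb3, the disrupted gene, was itself not called in mural cells (log2 difference -3.22, adjusted p 0.0917, edgeR) or in fibroblasts (-3.09, adjusted p 0.141, edgeR). A pair that was not called is therefore not shown to be unchanged. An unadjusted p under 0.05 was reached by 5 of the 28, where 11.1% of all pairs reached it, and DESeq2 called 1, where it called 1.15% of all pairs. The mice of the 2 genotypes did not overlap for 10 of the 28, where 41.7% of all pairs did not overlap (40.1% in immune, 45.1% in endothelial, 34.5% in epithelial, 38.0% in mesothelial, 41.1% in mural cells and 48.1% in fibroblasts). None of 54 pairs differed between lineages in its genotype effect (edgeR), where 0.0105% of all pairs did, at most 0.0172% in a lineage and 0.0115% in fibroblasts. An unadjusted p under 0.05 was reached by 1 of the 54, where 5.73% of all pairs reached it, and DESeq2 called none, where it called 0.206% of all pairs. For Il5, Il13 and Il13ra2, which were at or near 0 outside few cells, this estimate had no usable error. The same held for Il4 in epithelial and mesothelial cells. All these pairs are among the 54 and could not have been called.

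The wider pathway was described from 6 lists holding 88 genes. None of the genotype tests passed for the other alarmin and receptor chain genes (39 gene and lineage pairs), for type 2 signalling genes such as Jak1 and Stat6 (94 pairs), for basophil, mast cell and eosinophil genes (31 pairs) or for regulatory T cell genes (19 pairs). Among type 2 target genes 1 of 66 pairs was higher, and among innate lymphoid and T helper 2 genes 1 of 31. Those were Postn, which encodes the matrix protein periostin, at 25.9, 18.9, 86.5 and 56.2 CPM in mesothelial cells (log2 difference 1.71, SE 0.30, adjusted p 0.0435, edgeR), and Calca, which encodes calcitonin and CGRP, at 0.995, 1.35, 22.3 and 23.0 CPM in mesothelial cells (adjusted p 0.0145, edgeR). Both sit in the gate whose fibroblast markers were higher in Tubb3-/- mice, as given above for Il33. The part of those markers in these calls was not tested. Outside that gate the log2 difference of Postn was 1.30 in fibroblasts, 1.04 in immune, 0.48 in mural, 0.47 in epithelial and -0.16 in endothelial cells. That of Calca was 1.33 in immune cells, and none of these differences passed (edgeR). In immune cells 14 of 14 tested innate lymphoid and T helper 2 genes had a positive difference (median log2 0.57). So did 6 of 6 regulatory T cell genes (median 0.76), beside a median of -0.0055 over all genes, and none of them passed. Of the basophil, mast cell and eosinophil genes 5 of 12 were positive there (median -0.21). The cytokine genes ran both ways, with Il5 at -1.03, Il4 at -0.33 and Il13 at 1.60. Foxp3-positive cells, counted without thinning, made up a larger share of immune cells in each Tubb3-/- mouse, and their part in these differences was not tested.

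Across the 24 sums of 6 lineages and 4 mice, the genes whose log2 levels ran most like a member's were Gsta4, Aox3 and Ppl for Il33 (Pearson r 0.938, 0.934 and 0.927), Adamts17, Art4 and Snai2 for Tslp (0.963, 0.959 and 0.947) and Gmip, Txk and Galnt7 for Il1rl1 (0.960, 0.948 and 0.947). For Il4ra they were Ttyh3, Snn and Rell1 (0.978, 0.965 and 0.955) and for Il13ra1 Slc7a2, Dgkg and Zfp703 (0.883, 0.856 and 0.848). Il5 ran like Prf1, Ptprc and Csf3r (0.985, 0.984 and 0.980) and Il4 like Fcrls, Ptafr and Ccl12 (0.912, 0.893 and 0.889), where Ptprc is the immune gate gene itself, so those likenesses say only that a gene was immune. The sums share 4 mice and the 6 gates, and Il13 and Il13ra2 were under 1 CPM.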

How the data were processed

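Lungs were processed by the authors as 2 cell pools, each multiplexed with CellPlex tags, and sequenced on the 10x 3′ platform. Per the labels and the study's methods, reads were aligned to mm10 with an added Cre sequence and counted with Cell Ranger 7.1.0, and the deposited counts are UMIs per gene and cell, and Cell Ranger counts sense-strand reads by default. Cells with 200 to 7500 genes and at most 15% mitochondrial UMIs were kept (30860 of 32121), and Scrublet (scanpy 1.11.5, log-transformed, which gave a stable threshold) removed 1867 doublets. Gene UMIs per library were 41462258 to 95036340. A cell entered a lineage with 1 or more UMIs of its gate gene, and shares of cells were thinned to 2000 UMIs.

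UMIs summed per mouse and lineage were tested with edgeR 4.0.16 (quasi-likelihood, filterByExpr, TMM) at an adjusted p of 0.05, genotype in 1 fit per lineage and lineages in 1 fit of 24 sums. The edgeR fit gives no standard error directly. Each SE is the absolute log2 fold change divided by the square root of the F statistic, so it restates the test. The 4 mice each gave all lineages, so mouse as a term was an alternative there. Other alternatives were DESeq2 1.42.0, RLE scaling, no filter, doublets kept, a gate of 2 or more UMIs, single library types, 1 fit over all lineages, each mouse left out and a replicate block. With 2 mice a genotype, an exact permutation test cannot go below 0.333, and it was not used. Libraries with the same genotype and number matched in sex genes, were taken as 1 mouse and were summed. The script was tested on simulated data. Intervals and zero limits (3 counts) cover counting error only.

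Genes named were the 9 members, list genes called between genotypes (at most 5 a lineage), for members of at least 1 CPM the 3 genes with the highest Pearson r of log2(CPM + 1) among genes of at least 5 CPM, and Tubb3 and Cre; gate and marker genes are named beside them. Members and lists were chosen with earlier results of these data known. Promoter sequences are from RefSeq (GRCm38.p6), used for 8 of the 9 members; coordinates are from GENCODE vM21.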

Additional observations from a re-analysis of the deposited data

Results flagged for a closer look

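The cells that matched several lineages or none were outside every comparison, and they held member UMIs above the limit that a count of 0 allows. The 12870 cells of several lineages held 7459 UMIs of Il33, 2849 of Il1rl1, 5056 of Tslp, 116 of Il4, 359 of Il5, 86 of Il13, 14312 of Il4ra, 12290 of Il13ra1 and 49 of Il13ra2. No test was run on these cells.

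The 733 cells of no lineage held 181 UMIs of Il33, 72 of Il1rl1, 236 of Tslp, 39 of Il4, 16 of Il5, 6 of Il13, 248 of Il4ra and 255 of Il13ra1.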

How the results depend on the processing

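The count of member pairs called between genotypes was 0 by edgeR and 1 with DESeq2, 1 with 1 fit over all lineages and 6 with no filter on low counts (Il1rl1 and Il5 in immune cells, Il4ra in endothelial cells, Il33 in mesothelial and mural cells and Il13 in mural cells, the last from 1 rich cell); leaving out 1 mouse gave 0 to 6, with 6 without WT replicate 1. Over all genes the count of 37 became 870 with DESeq2, 2443 with no filter, 103 with a gate of 2 or more UMIs, 2 in the whole-cell libraries alone, 304 with 1 fit over all lineages, 164 with the gate of the leading lineage, an alternative chosen after seeing the data that keeps 24749 cells (85.4%), and 200 to 2081 with 1 mouse left out. The main fit tested 28 member pairs and 75624 pairs of all genes, and DESeq2 called 1.15% of the latter. With no filter 23672 genes were tested in fibroblasts, against 14747 in the main fit, and 0.0% were called. The share of all pairs called over all lineages is not given without the filter or with 1 mouse left out. The member counts of those fits are therefore not read as above or below that share. With the replicate block 1 member pair (Tslp in fibroblasts, adjusted p 0.00425 by edgeR) and 1718 pairs of all genes were called. Same-numbered mice correlated at 0.0637 to 0.29 over lineages, with only 2 pairs, so the number is not taken as a pairing. Member pairs called between lineages numbered 22 to 29, including Il4, Il5 and Il13, whose lineage tests were set aside above. The main fit called 27 of 48 such pairs, where it called 57.1% of all pairs. With no filter 1 member pair, Il33 in fibroblasts, had a genotype effect that differed between lineages. The main fit called no member pair there and 0.0105% of all pairs. Tslp in fibroblasts ranged from -1.24 to -0.84 over 14 alternatives (adjusted p 8.69e-05 to 0.367, edgeR and DESeq2) and was called in 5. Signs turned for Tslp in mural cells (-0.0099 with DESeq2, -0.047 in the enriched libraries, -0.00106 with 1 fit over all lineages, and -0.32 to 0.37 with 1 mouse left out), Il33 in fibroblasts (-0.038 in the whole-cell libraries, -0.32 to 1.45 with 1 mouse left out) and Il4 in immune cells (-1.26 to 1.79 with 1 mouse left out); the causes were not tested. Postn lost its call in 6 alternatives and Calca in 2. Without thinning, the shares of cells with a UMI were 25.6% for Il33 in epithelial cells, 36.5% for Tslp in fibroblasts, 1.05%, 1.24% and 0.676% for Il4, Il5 and Il13 in immune cells, 70.1% for Il4ra in endothelial cells and 44.7% for Il13ra1 in mural cells. Depth limits Il4, Il5, Il13 and Il13ra2, which rested on 17 to 96 cells of the lineages, and 2 mice a genotype limit every test.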
